A study of Macaca mulatta with 6 samples.

Results

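The collagen chain genes are the genes whose symbols start with COL followed by a digit, and 39 of the 17795 genes in the table met that rule. They were grouped by the kind of collagen their chains form, into 10 fibrillar, 8 network, 10 FACIT (fibril-associated collagens with interrupted triple helices), 5 beaded-filament, 2 transmembrane, 2 multiplexin and 2 other genes. They were measured by bulk RNA sequencing of rhesus monkey (Macaca mulatta) cells that the study names spermatogonial stem cells (SSCs), which were obtained from testis and cultured in droplets of a 3D hydrogel made of basement membrane extract with reduced growth factors. That matrix is the one in the paper's methods, whereas its results describe the platform as a collagen-PDGF hydrogel. The SSC PDGF+ group held 3 libraries from cultures given human platelet-derived growth factor (PDGF), and the SSC PDGF- group held 3 libraries from cultures without it. The SSC medium also held serum, vitamin C and the growth factors GDNF, EGF, LIF, bFGF and Wnt3a, among other additives. The sources used here do not say whether the medium and the matrix without PDGF were otherwise the same. By the labels, replicate 1 of each group was batch 1 and replicates 2 and 3 were batch 2, and the donors, their age and the days in culture are not given in the sources used here. The labels do not say whether the replicates came from separate cultures, so p-values measure only the spread between these libraries, which may be technical.

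Collagens are extracellular matrix proteins made of 3 chains wound into a triple helix, which requires a glycine at every turn and so gives each chain a run of Gly-X-Y repeats. Fibrillar chains assemble into the cable-like fibrils of connective tissue, network chains form the sheets of basement membranes, FACIT chains sit on fibril surfaces, beaded-filament chains make the type VI microfibrils around cells, and multiplexins carry interrupted helices and sit in or near basement membranes. In the testis, type IV and type XVIII collagens belong to the basement membrane on which spermatogonia rest, and types I, III and VI to the wall and the interstitium around it.

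The repeat can be read directly in the coding sequence. The first 90 bases of the longest Gly-X-Y run are given for 4 chains whose values the results turn on. They come from the RefSeq transcripts of the rhesus genome Mmul_10 and are written 5′ to 3′ in the sense of the transcript, with the glycine codons in capitals.
COL1A1: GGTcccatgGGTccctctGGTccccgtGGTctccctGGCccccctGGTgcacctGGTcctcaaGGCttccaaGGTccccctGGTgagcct
COL3A1: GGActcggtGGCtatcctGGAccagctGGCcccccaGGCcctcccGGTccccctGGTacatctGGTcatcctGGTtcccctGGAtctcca
COL6A2: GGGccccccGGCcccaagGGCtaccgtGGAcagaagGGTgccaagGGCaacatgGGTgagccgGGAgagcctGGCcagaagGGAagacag
COL12A1: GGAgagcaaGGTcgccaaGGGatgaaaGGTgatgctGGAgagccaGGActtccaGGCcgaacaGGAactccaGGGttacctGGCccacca
Glycine codons (GGN) stand at the start of each triplet of codons in all 4 stretches. In the whole run there were 338 such triplets in COL1A1, 343 in COL3A1, 87 in COL6A2 and 32 in COL12A1. The GC content of the run was 66.6% in COL1A1, 61.0% in COL3A1, 68.6% in COL6A2 and 59.4% in COL12A1. GC at the third base of the codons differed more, at 34.5% in COL1A1, 22.5% in COL3A1 and 62.8% in COL6A2. Over the whole transcript, the 28 collagen genes that passed the filter on low counts had a median GC content of 57.3% (range 40.0 to 67.3%), against 49.2% over 11237 tested genes with a RefSeq transcript.

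Library totals ranged from 10593804 to 14102695 counts. Most defining markers of spermatogonia were at or near 0, which goes against the name of these cells. NANOS2 and STRA8 had no count in any library, GFRA1, ERBB4, ZBTB16, SALL4 and MAGEA4 lay under 1 CPM in all of them, and the summed level of 12 spermatogonial markers (377 to 437 CPM in SSC PDGF+ and 351 to 463 CPM in SSC PDGF-, CPM being normalized counts scaled by library size) came mostly from ID4 and UCHL1, which other cell types also express, with UCHL1 higher and FGFR3 and DDX4 lower. FGFR3 was the next most abundant of them, at 7.16 to 17.8 CPM in SSC PDGF+ and 25.9 to 81.8 CPM in SSC PDGF-. The summed level of 11 stromal fibroblast markers was 6376 to 6524 CPM in SSC PDGF+ and 8359 to 9095 CPM in SSC PDGF-, with NT5E and S100A4 higher and POSTN, FAP and PDGFRA lower. The largest part was VIM, at 2793 to 3039 CPM in SSC PDGF+ and 3207 to 3470 CPM in SSC PDGF-. The paper also ties VIM to the blood-testis barrier, so it does not mark fibroblasts alone. The counts of PDGFRA equal those of FIP1L1 throughout, and which of these genes they stem from is unknown. Such matches were common, with 850 genes of at least 20 counts in total equal to another gene in all libraries. The 5 peritubular myoid markers summed to 369 to 478 CPM in SSC PDGF+ and 696 to 908 CPM in SSC PDGF-, with DES and ACTA2 lower. Among markers of other cells, the 5 epithelial ones summed to 35.6 to 51.9 CPM against 87.3 to 122 CPM, with CDH1, KRT18 and PAX8 lower, and the 4 spermatid ones to 48.1 to 75.9 CPM against 415 to 681 CPM, with TNP1 and TNP2 lower. CDH1 and DDX4 passed the filter on low counts only through the SSC PDGF- group, in which they were higher. The 7 Leydig cell markers summed to 262 to 328 CPM against 231 to 266 CPM, with CYP11A1 at 0 in every library and IGF1 lower. These sums came mostly from STAR, at 257, 309 and 322 CPM in SSC PDGF+ and 215, 254 and 233 CPM in SSC PDGF-. INSL3, LHCGR and HSD3B2 lay under 1 CPM in every library. Some listed markers were not in the table and are in no sum. These were UTF1, NANOS3 and KIT (spermatogonia), PRM1 and PRM2 (spermatids), TCF21 (stroma), KRT8 (epithelium), AIF1 (myeloid cells) and AMH, SOX9 and CLDN11 (Sertoli cells). AMH and SOX9 are Sertoli markers of the paper, and only 4 of 7 listed Sertoli markers were measured. The measured Sertoli, endothelial and myeloid markers summed to between 3.44 and 18.6 CPM in every library. These marker levels moved with the groups in which the collagen genes were compared, and their part in the collagen results was not tested. In bulk libraries, fewer cells of a type and less RNA per cell cannot be told apart.

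Collagen transcripts were a large part of these libraries. All 39 genes together held 2.72%, 3.50% and 3.58% of the counts in SSC PDGF+ replicates 1 to 3, and 2.23%, 2.57% and 2.55% in SSC PDGF-. The SSC PDGF+ values were all above the SSC PDGF- values, with means of 3.27% ± 0.475 (SD, n = 3) and 2.45% ± 0.191, and the difference was 0.489 percentage points in batch 1 and 0.978 in batch 2. Beaded-filament genes accounted for most of that difference, at 1.09% ± 0.182 against 0.518% ± 0.0885. The fibrillar share barely differed (1.81% ± 0.288 against 1.74% ± 0.0981), and its difference was -0.144 percentage points in batch 1 and 0.185 in batch 2. Network genes held 0.105% ± 0.00596 against 0.0384% ± 0.00323, multiplexins 0.0663% ± 0.00191 against 0.0168% ± 0.00115, and FACIT genes 0.191% ± 0.00244 against 0.141% ± 0.00209, and none of these 3 classes overlapped between the groups. COL1A1, COL1A2, COL3A1, COL6A1, COL6A2 and COL6A3 held 78.9 to 85.6% of the collagen counts of a library.

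**Figure D1:**
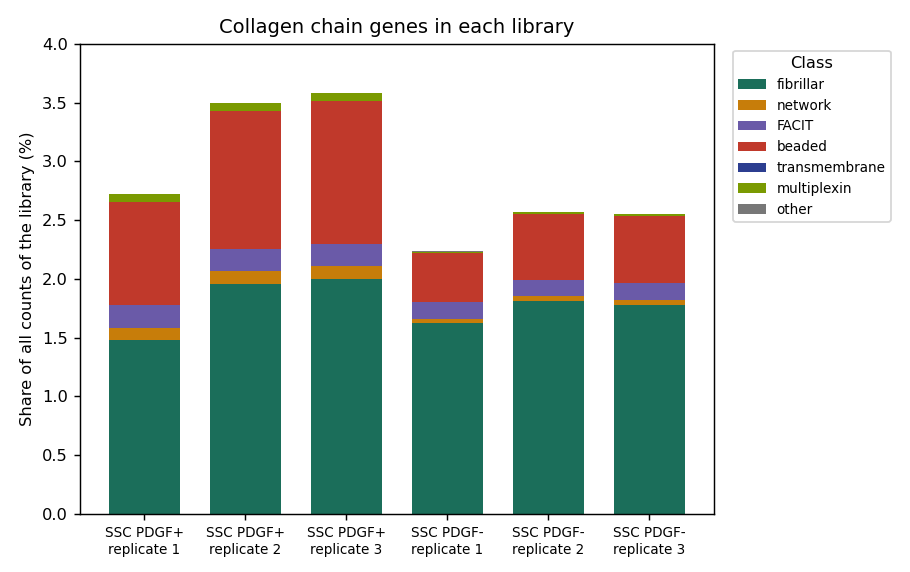
Share of all counts of each library (vertical axis, in %) held by the collagen chain genes, stacked by class, for the 3 SSC PDGF+ and 3 SSC PDGF- libraries. The SSC PDGF+ bars reach 2.72 to 3.58% and the SSC PDGF- bars 2.23 to 2.57%, with the fibrillar part alike and the beaded-filament part about 2.11 times as large in SSC PDGF+.

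Of the 39 genes, 28 passed the filter on low counts and were tested. With edgeR's quasi-likelihood test at an adjusted p under 0.05, 10 of these were higher in SSC PDGF+ (over all 11539 tested genes 7.61% were higher) and 4 were lower (10.7% of all tested genes). Their median log2 fold change was 0.47, against 0.018 over all tested genes. By class, 3 of 5 tested network genes, 2 of 3 beaded-filament genes, 2 of 6 FACIT genes, 1 of 2 transmembrane genes, 1 of 2 multiplexins and 1 of 9 fibrillar genes were higher. The lower calls were 3 fibrillar genes and 1 FACIT gene. The called genes COL22A1, COL25A1 and COL9A3 passed the filter only through the group in which they were higher, and without these 3 the calls were 8 higher and 3 lower. The values of all 3 SSC PDGF+ libraries lay above all 3 SSC PDGF- libraries for 11 of the 28 (18.2% of all tested genes) and below for 7 (19.3%). The log2 difference had the same sign in both batches for 27 of the 28, COL4A5 being the exception. The share of all tested genes with the same sign was not taken, so this count shows nothing particular to collagen genes.

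With the replicate number as a block, so that each SSC PDGF+ library was set against the SSC PDGF- library of its number, 16 collagen genes were higher (31.1% of all tested genes in that fit) and 7 lower (29.0%). All 14 genes called without the block were called in the same direction with it. The 9 added genes were COL1A1, COL1A2, COL5A1, COL6A2, COL18A1 and COL28A1, which were higher, and COL4A6, COL9A2 and COL16A1, which were lower.

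**Figure D2:**
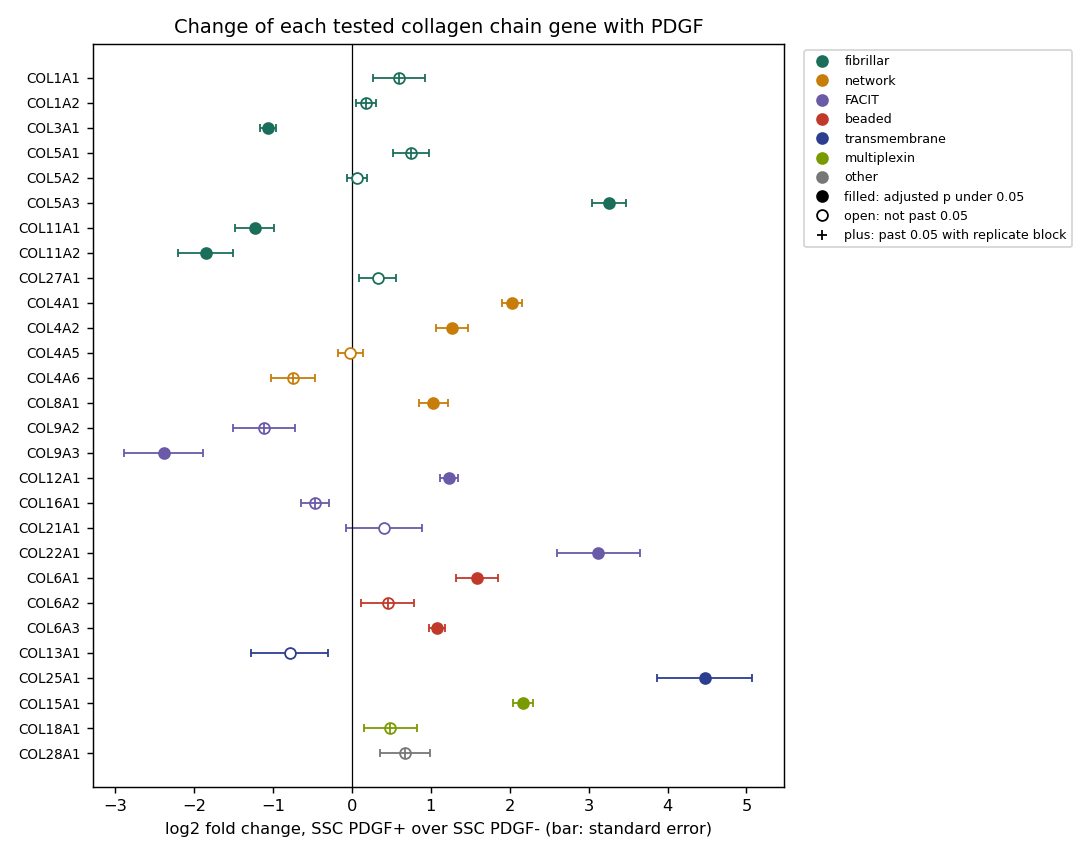
Log2 fold change of SSC PDGF+ over SSC PDGF- (horizontal axis) for each of the 28 tested collagen chain genes, with the standard error as a bar and the class as the colour. Filled points are the 14 genes past an adjusted p of 0.05, and plus signs mark the 9 that passed only with the replicate block, which run from -1.11 in COL9A2 to 0.74 in COL5A1.

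The fibrillar genes went in different directions. COL3A1, the chain of type III collagen, was at 2757, 2868 and 2931 CPM in SSC PDGF+ replicates 1 to 3 and at 6258, 5848 and 5809 CPM in SSC PDGF-. The 3 SSC PDGF+ libraries lay close together and well below the others, and the gene fell by 1.07 on the log2 scale (SE 0.10, adjusted p = 0.00042), with differences of -1.18 in batch 1 and -1.01 in batch 2. Type I collagen, the main fibril protein of most connective tissue, showed no such fall. COL1A1 was at 4088, 8194 and 8241 CPM in SSC PDGF+ and 2723, 5421 and 5422 CPM in SSC PDGF-. Replicate 1 was the lowest of each group, and since SSC PDGF+ replicate 1 lay below SSC PDGF- replicates 2 and 3, the groups overlapped. Its log2 fold change was 0.60 (SE 0.33, adjusted p = 0.25) without the block and 0.60 (SE 0.028, adjusted p = 5.0e-14) with it. COL1A2, its partner in the type I heterotrimer, was at 5193, 6439 and 6539 CPM in SSC PDGF+ and 4955, 5572 and 5481 CPM in SSC PDGF-, again with replicate 1 lowest and the groups overlapping. The difference was 0.18 on the log2 scale (SE 0.12, adjusted p = 0.34; with the block, adjusted p = 8.2e-05).

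The order of the abundant fibrillar genes differed between the groups. Scaled by transcript length, mean levels in SSC PDGF+ were 1195 CPM per kb for COL1A2, 1136 for COL1A1 and 619 for COL3A1, and the first 2 did not differ beyond their spread (SD 148 and 396). In SSC PDGF-, COL3A1 came first with 1295 CPM per kb, before COL1A2 with 1053 and COL1A1 with 751. The ratio of COL1A2 to COL3A1 on this scale, a pair chosen after the values were seen, was 1.71, 2.04 and 2.03 with PDGF and 0.720, 0.867 and 0.858 without it. Each group lay on its own side of 1, and the spread within a group was smaller than the gap. The ratio of COL1A1 to COL1A2 overlapped between the groups (geometric means 0.910 and 0.681) and replicate 1 gave the lowest ratio of each group.

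Type V collagen chains, which join type I fibrils and limit their diameter, differed among themselves. COL5A3 was at 102, 145 and 157 CPM in SSC PDGF+ and at 12.2, 16.0 and 14.0 CPM in SSC PDGF-. Every SSC PDGF+ library was several times above every SSC PDGF- library, and the gene rose 9.58-fold (log2 fold change 3.26, SE 0.22, adjusted p = 0.00011). COL5A1 was at 989, 1526 and 1550 CPM against 590, 916 and 919 CPM. Its groups did not overlap, although the lowest SSC PDGF+ library came near the highest SSC PDGF- library, and its log2 fold change of 0.74 (SE 0.23) had an adjusted p of 0.058 without the block and 7.4e-14 with it. COL5A2 overlapped, with 963, 824 and 841 CPM against 933, 790 and 795 CPM, and its log2 fold change was 0.06 (SE 0.13, adjusted p = 0.77). The ratio of COL5A3 to COL5A1 per kb, also chosen after the values were seen, was 0.130 in SSC PDGF+ and 0.0231 in SSC PDGF- without overlap, so the third chain stayed the least abundant of the type in both groups.

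Both type XI chains, which nucleate thin fibrils and are best known from cartilage, were lower and scarce. COL11A1 was at 4.46, 4.93 and 5.71 CPM in SSC PDGF+ and 13.7, 13.1 and 8.62 CPM in SSC PDGF-, and fell by 1.23 on the log2 scale (SE 0.25, adjusted p = 0.012). COL11A2 was at 0.878, 1.17 and 1.05 CPM against 2.87, 4.79 and 3.63 CPM, and fell by 1.85 (SE 0.34, adjusted p = 0.0084). Neither gene overlapped between the groups, but without SSC PDGF+ replicate 2 the adjusted p of COL11A1 was 0.052. COL2A1, the cartilage type II chain, did not pass the filter, with a sum of 11 counts in the SSC PDGF+ group and 31 in the SSC PDGF- group. Scaled by library size, it was 3.51 times as high in SSC PDGF- (95% exact interval 1.72 to 7.75, counting error only). COL27A1 overlapped between the groups, with a log2 fold change of 0.33 (SE 0.24, adjusted p = 0.37).

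**Figure D3:**
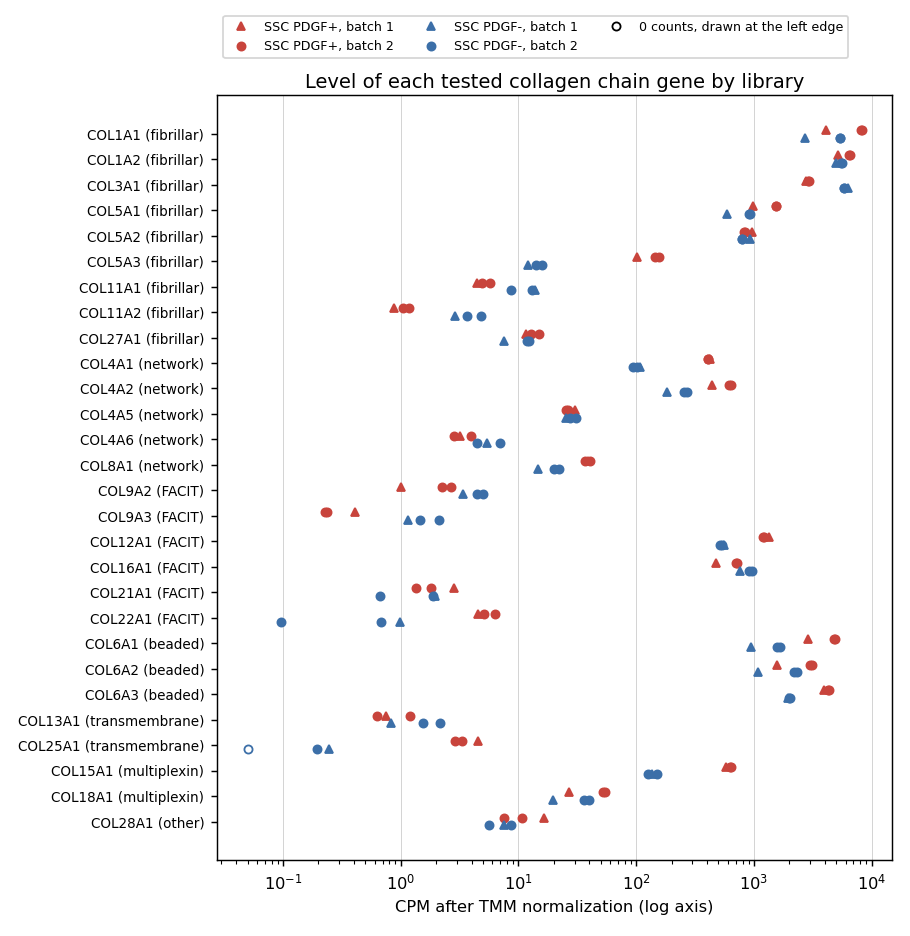
Level of each of the 28 tested collagen chain genes in each of the 6 libraries (horizontal log axis, CPM), with SSC PDGF+ in red, SSC PDGF- in blue, batch 1 as triangles and batch 2 as circles. COL3A1, COL4A1, COL5A3, COL12A1, COL15A1 and COL6A3 show groups apart with little spread, whereas COL1A1, COL6A2 and COL18A1 show the batch 1 libraries to the left within each group.

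Among the network genes, the ubiquitous type IV chains of basement membranes rose together. COL4A1 was at 423, 409 and 406 CPM in SSC PDGF+ and at 108, 101 and 94.6 CPM in SSC PDGF-. Libraries of one group lay within a narrow range, and the gene was 4.09-fold higher with PDGF (log2 fold change 2.03, SE 0.12, adjusted p = 8.0e-05). COL4A2, its partner in the common type IV trimer, was at 437, 637 and 619 CPM against 181, 269 and 252 CPM, a 2.41-fold difference (log2 fold change 1.27, SE 0.21, adjusted p = 0.0048). The groups did not overlap for either gene. In the RefSeq annotation these 2 genes lie head to head as neighbours. They did not change by the same factor, since the ratio of COL4A1 to COL4A2 per kb was 0.714 in SSC PDGF+ and 0.421 in SSC PDGF-, without overlap between the groups, and its log2 value was higher by 0.70 in batch 1 and 0.79 in batch 2.

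The other type IV chains gave a different picture. COL4A5 was at 30.0, 25.6 and 26.6 CPM in SSC PDGF+ and 25.1, 30.9 and 27.2 CPM in SSC PDGF-, and these values overlapped throughout (log2 fold change -0.02, SE 0.16, adjusted p = 0.94). COL4A6, its head-to-head neighbour, was at 3.17, 2.82 and 3.98 CPM against 5.42, 4.41 and 6.96 CPM. Its groups did not overlap, and its log2 fold change of -0.75 (SE 0.28) had an adjusted p of 0.10 without the block and 0.019 with it. COL4A3 and COL4A4, best known from the kidney glomerulus, were nearly absent, with 0 and 5 counts over SSC PDGF+ and 4 counts each over SSC PDGF-. Against a floor of 3 counts over the group, COL4A3 was 1.66-fold lower in SSC PDGF+. That figure takes the 4 counts as exact and is no minimum fold change. COL8A1, a short-chain network collagen of vessel walls and Descemet's membrane, was at 39.1, 36.7 and 40.3 CPM in SSC PDGF+ and 14.8, 22.1 and 19.9 CPM in SSC PDGF-. It was 2.04-fold higher without overlap (log2 fold change 1.03, SE 0.19, adjusted p = 0.0077), while COL8A2 had 2 counts in SSC PDGF+ and 0 in SSC PDGF-.

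The multiplexins held the member with the smallest adjusted p. COL15A1, whose chain bridges basement membranes and the fibrils beneath them, was at 584, 640 and 626 CPM in SSC PDGF+ and at 136, 150 and 126 CPM in SSC PDGF-. It was 4.49-fold higher, with all values of a group close together (log2 fold change 2.17, SE 0.13, adjusted p = 7.5e-05). COL18A1, the chain that carries endostatin, was at 26.7, 52.0 and 54.5 CPM against 19.5, 36.1 and 39.4 CPM. Replicate 1 was the lowest of both groups and the groups overlapped, and its log2 fold change of 0.49 (SE 0.34) had an adjusted p of 0.35 without the block and 8.6e-05 with it.

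The beaded-filament genes all encode type VI chains, and 3 of the 5 were tested. COL6A1 was at 2860, 4842 and 4818 CPM in SSC PDGF+ and 943, 1585 and 1650 CPM in SSC PDGF-, and rose by 1.58 on the log2 scale (SE 0.27, adjusted p = 0.0058). COL6A3, which carries the long chain of the trimer, was at 3959, 4277 and 4342 CPM against 1947, 1970 and 2022 CPM, and rose 2.12-fold (log2 fold change 1.08, SE 0.10, adjusted p = 0.00043). Neither gene overlapped between the groups. COL6A2 was at 1579, 2976 and 3114 CPM in SSC PDGF+ and 1077, 2212 and 2317 CPM in SSC PDGF-, and SSC PDGF+ replicate 1 lay below 2 of the SSC PDGF- libraries. Its log2 fold change was 0.45 (SE 0.33, adjusted p = 0.38), and with the block 0.47 (SE 0.034, adjusted p = 1.3e-10).

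The 3 chains are needed for 1 monomer, but their transcripts did not keep a fixed ratio. Per kb of transcript, COL6A1 stood at 1.42 times COL6A2 in SSC PDGF+ and at 0.653 times in SSC PDGF-. These groups did not overlap, and the difference of 1.12 on the log2 scale was larger than the spread of the libraries within a group. COL6A1 and COL6A2 are neighbours on the same strand in the RefSeq annotation. The chains that can replace the long one were scarce, with COL6A5 at 0 in all 6 libraries and COL6A6 at 10 counts over SSC PDGF+ and 2 over SSC PDGF- (ratio 4.01, 95% exact interval 0.855 to 37.7).

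**Figure D4:**
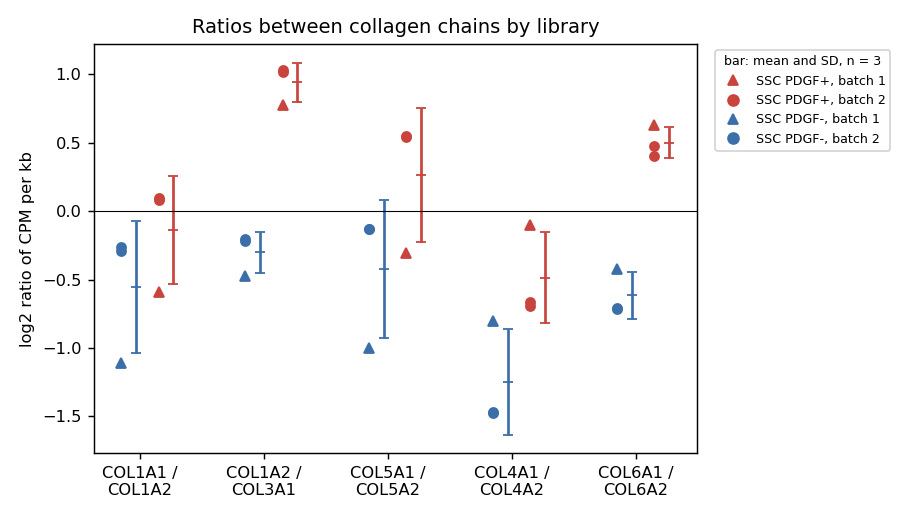
Log2 ratio of CPM per kb between collagen chains (vertical axis) in each library for 5 pairs, with the mean and SD of the 3 libraries of a group beside the points. The COL1A2/COL3A1, COL4A1/COL4A2 and COL6A1/COL6A2 ratios are higher in SSC PDGF+ without overlap, and the COL1A1/COL1A2 and COL5A1/COL5A2 ratios overlap, with batch 1 lowest in both groups.

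FACIT genes included rises and falls. COL12A1, whose chain decorates type I fibrils under mechanical load, was at 1349, 1220 and 1198 CPM in SSC PDGF+ and 559, 534 and 517 CPM in SSC PDGF-. It was 2.34-fold higher with little spread within a group (log2 fold change 1.23, SE 0.11, adjusted p = 0.00041). COL22A1, a chain of tissue junctions, was at 4.52, 6.33 and 5.11 CPM against 0.986, 0.0958 and 0.686 CPM, which were 67, 81 and 68 counts against 12, 1 and 7. The groups lay apart and its log2 fold change was 3.12 (SE 0.52, adjusted p = 0.0055), a size that rests on few counts in SSC PDGF-, and it passed the filter only through the SSC PDGF+ group. COL16A1, a minor chain of interstitial and basement membrane matrix, was the most abundant FACIT gene per kb in SSC PDGF-, at 140 CPM per kb against 101 in SSC PDGF+. Its library values were 480, 698 and 718 CPM in SSC PDGF+ and 755, 913 and 956 CPM in SSC PDGF-, without overlap. The log2 fold change of -0.47 (SE 0.18) had an adjusted p of 0.11 without the block and 8.0e-09 with it.

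Of the chains of type IX collagen, best known from cartilage, COL9A3 was called lower. It was at 0.405, 0.235 and 0.225 CPM in SSC PDGF+ and 1.15, 2.11 and 1.47 CPM in SSC PDGF-. Its groups did not overlap and it fell by 2.39 on the log2 scale (SE 0.50, adjusted p = 0.013), but the adjusted p was between 0.052 and 0.064 when SSC PDGF+ replicate 2, SSC PDGF+ replicate 3 or SSC PDGF- replicate 2 was left out. It passed the filter only through the SSC PDGF- group, with 6, 3 and 3 counts in SSC PDGF+. COL9A2 was at 1.01, 2.66 and 2.25 CPM against 3.37, 4.98 and 4.41 CPM, also without overlap, and its log2 fold change of -1.11 (SE 0.39) had an adjusted p of 0.087 without the block and 0.0054 with it. COL9A1 had 5 counts in each group. COL21A1 overlapped, with a log2 fold change of 0.41 (SE 0.49, adjusted p = 0.60). Of the remaining FACIT genes, COL14A1 had 23 counts in each group. COL19A1 had 6 against 0 (1.60-fold higher over the floor, with the 6 counts taken as exact). COL20A1 had 4 against 10 (SSC PDGF- over SSC PDGF+ 3.12, 95% exact interval 0.899 to 13.6).

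The transmembrane gene COL25A1, whose chain has a shed extracellular part and is known from neurons, had the highest fold change of the tested collagen genes. Its counts were 67, 37 and 44 with PDGF and 3, 0 and 2 without it, or 4.52, 2.89 and 3.31 CPM against 0.246, 0 and 0.196 CPM. All SSC PDGF+ libraries lay far above the others, and it passed the filter only through the SSC PDGF+ group. The fitted log2 fold change was 4.47 (SE 0.60, adjusted p = 0.0022), a size that depends on the handful of counts in SSC PDGF-. COL13A1, a transmembrane chain of adhesion sites, was at 0.743, 0.626 and 1.20 CPM against 0.821, 1.53 and 2.16 CPM, with overlapping groups (log2 fold change -0.79, SE 0.49, adjusted p = 0.30). COL28A1, grouped under other, was at 16.5, 7.51 and 10.7 CPM against 7.56, 5.65 and 8.62 CPM. Its groups overlapped, and its log2 fold change of 0.67 (SE 0.32) had an adjusted p of 0.18 without the block and 0.0068 with it. COL26A1, also grouped there, had 0 counts in SSC PDGF+ and 5 in SSC PDGF-. Against the floor of 3 counts it was 2.08-fold lower, with the 5 counts taken as exact.

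The levels of many genes, collagen genes among them, also differed between the batches. In a fit with both group and batch, 11 of the 28 were higher in batch 2 (29.3% of all tested genes) and 3 were lower (27.9%). COL6A2 (log2 difference 1.01), COL1A1 (1.00), COL18A1 (0.98), COL6A1 (0.77) and COL5A1 (0.64) were the furthest up among these, and COL28A1 (-0.53), COL5A2 (-0.22) and COL12A1 (-0.12) were down. COL3A1, COL4A1 and COL15A1 differed by -0.02, -0.09 and 0.07 and did not pass the threshold. Across the 28 genes, the batch difference followed the GC content of the transcript, with Pearson's r = 0.863 and Spearman's rho = 0.845, and over 11237 tested genes r was 0.790. The PDGF log2 fold change of the same 28 genes gave r = -0.256. These are correlations across genes that share the same 6 libraries, and genes are not independent replicates. The part of base composition in the batch difference was not tested.

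**Figure D5:**
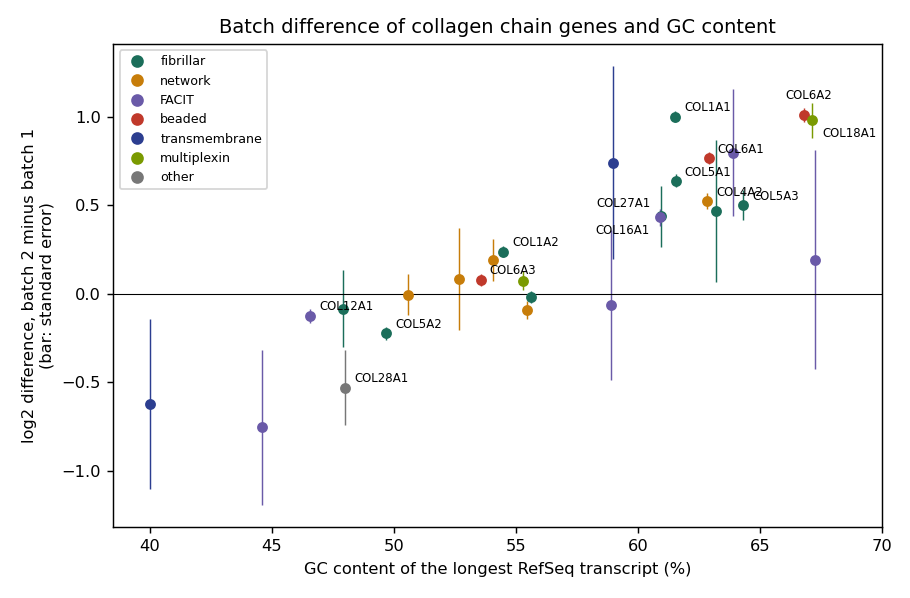
Log2 difference of batch 2 minus batch 1 (vertical axis, bar: standard error) against the GC content of the longest RefSeq transcript (horizontal axis, in %) for the 28 tested collagen chain genes, coloured by class. Batch differences tend to be higher at higher GC (r = 0.863), with COL21A1 lowest at -0.75 and 44.6% GC and COL6A2 highest at 1.01 and 66.8%, while COL9A3 at 67.3% lies at 0.19, and the named genes are those past an adjusted p of 0.05.

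Genes that act on collagen were examined in 4 lists. Of 22 genes for synthesis and folding in the endoplasmic reticulum, 21 were tested, 6 were higher (7.61% of all tested genes) and none was lower (10.7%), and the median log2 fold change was 0.38. P4HA1, a catalytic subunit of the prolyl 4-hydroxylase that stabilizes the triple helix, was at 311, 214 and 229 CPM in SSC PDGF+ and 141, 94.0 and 107 CPM in SSC PDGF- (log2 fold change 1.14, SE 0.21, adjusted p = 0.0080). PLOD2, which hydroxylates telopeptide lysines for cross-linking, rose by 1.11 (SE 0.19, adjusted p = 0.0066), and FKBP14, a collagen-folding prolyl isomerase, by 0.95 (SE 0.27, adjusted p = 0.042). P4HA2, KDELR2 and P3H1 were the other higher genes. SERPINH1, the collagen chaperone HSP47, was among the most abundant, at 3754, 4635 and 4652 CPM against 3078, 4072 and 4111 CPM, and did not pass the threshold without the block (log2 fold change 0.21, adjusted p = 0.37). With the block, 13 genes of this list were higher (31.1% of all tested genes) and 4 lower (29.0%), and the same shares over all tested genes stand behind the counts of the next 3 lists.

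For genes that act after secretion, the calls differed by list. Of 12 genes for propeptide removal and cross-linking that were analysed here, 9 were tested. None was higher (7.61% of all tested genes) and 1 was lower (10.7%). That single call was LOXL3, a lysyl oxidase-like enzyme, which fell by 0.67 (SE 0.19, adjusted p = 0.045). With the block, 4 were higher (31.1% of all tested genes) and 4 lower (29.0%). Among 7 tested collagen receptors, 3 integrin α chains were higher (7.61% of all tested genes) and none was lower (10.7%). With the block 5 were higher (31.1%) and 1 was lower (29.0%). ITGA2, of the integrin that binds type I collagen, was at 172, 123 and 130 CPM in SSC PDGF+ and 34.1, 16.7 and 26.9 CPM in SSC PDGF- (log2 fold change 2.45, SE 0.27, adjusted p = 0.00095). ITGA1, of the integrin that prefers type IV collagen, rose by 1.73 (SE 0.22, adjusted p = 0.0018), and ITGA10 by 1.67 (SE 0.46, adjusted p = 0.039) from a level below 1 CPM. ITGA10, with 16, 16 and 16 counts against 6, 3 and 3, passed the filter only through the SSC PDGF+ group. The kinase receptors DDR1 and DDR2 had log2 fold changes of -0.74 (adjusted p = 0.061) and 0.06 (adjusted p = 0.83), and DDR1 was the lower gene under the block (adjusted p = 2.9e-09).

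Breakdown genes were split. Of 10 tested, 2 rose (7.61% of all tested genes) and 3 fell (10.7%), with a median log2 fold change of -0.41. Under the block 3 rose (31.1% of all tested genes) and 6 fell (29.0%). MMP1, the interstitial collagenase that cuts fibrillar collagen, was at 1591, 1109 and 1149 CPM in SSC PDGF+ and 265, 178 and 184 CPM in SSC PDGF- (log2 fold change 2.62, SE 0.22, adjusted p = 0.00026). MMP9, a gelatinase, rose by 1.92 (SE 0.30, adjusted p = 0.0039). The other gelatinase gene MMP2 fell by 1.12 (SE 0.14, adjusted p = 0.0017), and FAP by 1.08 (SE 0.16, adjusted p = 0.0031) and MMP14, the membrane-bound collagenase that activates MMP2, by 0.80 (SE 0.16, adjusted p = 0.012). FAP is also a member of the stromal marker list.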

How the data were processed

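Bulk RNA sequencing libraries of cultured rhesus cells that the study names SSCs, 3 SSC PDGF+ and 3 SSC PDGF-, were analysed. The authors deposited expected counts per gene, without normalization, in 1 table, where 34 values, spread over 13 genes, carry a fraction. All values were rounded to whole numbers, although whole counts had been planned for. The submitters' processing notes list fastp, HISAT2 2.1.0, SAMtools and featureCounts 2.0.1 and the builds Mmul_10 and Mmul_8.0.1, with no role or order. Which build the counts rest on is not given in the sources used here, so no coordinates are printed. How strand and reads shared by paralogs were counted is not given either, and reads of overlapping genes cannot be told apart. No collagen gene with a sum of 20 counts or more matched another gene in all 6 libraries.

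Library totals of 10593804 to 14102695 counts set the precision. Ratios of genes under the filter carry exact binomial (Clopper-Pearson) 95% intervals, which cover counting error only. A group at 0 was set to a floor of 3 counts over the group. Ratios over that floor took the counts of the other group as exact, so they are not minimum fold changes.

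Counts were normalized by TMM and tested by edgeR 4.0.16 (R 4.3.3) with filterByExpr and the quasi-likelihood test over all 11539 tested genes, with Benjamini-Hochberg adjusted p under 0.05 as the threshold. Standard errors were derived from the fold change and the F statistic. Within a batch, log2 differences were taken after adding 0.5 counts. Levels between genes were compared as CPM per kb of the longest RefSeq transcript (Mmul_10), to which all 39 collagen genes matched by symbol. Ratios between chains are group means of the log2 ratio of CPM per kb, taken back to the linear scale, and were not tested.

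Same-numbered libraries share a batch by the labels, and after the group mean was subtracted the pairs with number 1, 2 and 3 had correlations over genes of 0.728, 0.350 and 0.374. The numbers were taken to pair the libraries. Replicates 2 and 3 share a batch, with r of 0.393 and 0.360 across numbers, so r did not set the same-numbered pairs apart there. Between the counts of replicates 2 and 3 of a group, the chi-square per degree of freedom was 3.41 and 3.63. Between either of them and replicate 1 it was 47.6 to 59.4. Whether replicates 2 and 3 are separate cultures is unknown, which limits the p-values with the block. Alternatives were other normalizations and count filters, DESeq2 1.42.0, limma-voom (limma 3.58.1), batch 2 alone, the replicate block, a batch term, replicates 2 and 3 summed, a correction for GC content and length, other thresholds, and each library left out. The sum of replicates 2 and 3 with a batch term was chosen after seeing the data. The fits without a block by edgeR, DESeq2 and limma-voom and the GC and length correction were tested on simulated data without a batch difference. The block, the batch term and the summed fits were not tested in this way. Python 3.11.15 with pandas 2.3.3 made the tables, and matplotlib 3.10.9 the figures.

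The members and lists were chosen with earlier results of these data known. By the rule for naming, every collagen gene is accounted for, and given by library are called genes (up to 15), the most abundant per length of each class, and partner chains of a called gene. From other lists up to 3 called genes in each direction are named with values. COL1A1, COL5A1, COL5A2, COL4A5, COL4A6, COL9A2, COL18A1 and SERPINH1, where outside that rule, were chosen after their values were seen.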

Additional observations from a re-analysis of the deposited data

How the results depend on the processing

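Without the replicate block, 10 collagen genes were called higher (7.61% of all tested genes) and 4 lower (10.7%) by edgeR. Shares in brackets are over all genes tested in the same fit. Pairing the libraries by a replicate block gave 16 higher (31.1%) and 7 lower (29.0%), and batch as a term 16 (31.2%) and 7 (29.4%). The block plus an adjustment for GC content and length gave 17 (27.3%) and 7 (28.7%). That adjustment alone, without a block, gave 15 higher (19.9%) and 7 lower (21.8%). With replicates 2 and 3 summed, 1 was lower (4.06%). Batch as a term added to that sum, an alternative chosen after seeing the data, gave 17 higher (30.6%) and 8 lower (28.5%). At an adjusted p under 0.01, 2 were lower, and the share over all tested genes was not taken there. Leaving out each library in turn gave 10 to 11 higher (3.69 to 10.9%) and 2 to 5 lower (6.16 to 14.7%), the fewest without SSC PDGF+ replicate 2. The cause of these shifts was not tested, beyond the fewer libraries in the summed and left-out fits. Counts under the other alternatives stayed within 1.5 times of those without the block.

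COL5A3, COL12A1, COL15A1, COL3A1, COL4A1, COL6A1 and COL6A3 passed the threshold in all 20 alternatives. With replicates 2 and 3 summed, the adjusted p was 0.063 for COL11A1, 0.071 for COL11A2, 0.054 for COL4A2, 0.078 for COL8A1 and 0.088 for COL9A3. Of the genes uncalled without the block, COL5A1 (adjusted p = 3.0e-06), COL6A2 (1.2e-05), COL18A1 (0.00013), COL1A1 (0.00048), COL1A2 (0.010), COL16A1 (0.011), COL9A2 (0.025) and COL4A6 (0.030) passed with the GC and length adjustment. COL5A1 also passed with DESeq2 (0.021), with no normalization factors (0.032), with no count filter (0.038) and without SSC PDGF+ replicate 1 (0.015), COL9A2 with DESeq2 (0.042) and COL16A1 without SSC PDGF- replicate 1 (0.044). Signs changed for 2 genes with log2 fold changes near 0. COL4A5 (-0.02) was at 0.0093 with no count filter, at 0.060 with replicates 2 and 3 summed and 0.045 with batch as a term added, and between -0.097 and 0.070 with a library left out. COL5A2 (0.06) was at -0.0026 with upper quartile normalization, at -0.039 with the GC and length adjustment and -0.040 with the block added, and between -0.0026 and 0.13 with a library left out. Depth limits the 11 collagen genes under the filter and the sizes given for COL22A1 and COL25A1, which rest on few counts in SSC PDGF-.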
